A study of Mus musculus with 18 samples.

Results

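The genes described here are the nuclear subunits of complexes II to V of the mitochondrial respiratory chain in mouse peritoneal macrophages. Members were the protein-coding rows whose symbol is Sdha, Sdhb, Sdhc, Sdhd or Cyc1 or begins with Uqcr, Cox4 to Cox8 or Atp5. That rule took 49 of the 55573 rows of the count table and 48 distinct symbols, since Atp5o has a second row with 0 counts. They fall into 4 subunits of complex II, 9 of complex III, 18 of complex IV and 18 of complex V. With enough counts to be tested were 42 of them, among 13443 genes tested. RNA-seq was made from macrophages of the peritoneal lavage of C57BL/6 mice, sorted on CD11b and F4/80, in 18 libraries with 3 for each of 6 groups, each library from a pool of 2 to 3 mice. Both genotypes carried the floxed Zeb1f/f alleles: Zeb1 WT is Zeb1f/f without Cre, and Zeb1 ∆M is Zeb1f/f LysM Cre, whose Cre is driven by the Lyz2 promoter and is active in myeloid cells in general. Mice of each genotype received a single dose of LPS (LPS), 2 doses of LPS (LPS + LPS) or Metformin and then a single dose of LPS (Metformin + LPS). LPS, a bacterial wall component, sets off inflammatory transcription through its receptor on macrophages, and a repeated dose gives a blunted state known as tolerance. All groups had received LPS, so no comparison below is with untreated cells, and the labels give no dose, time or age.

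In the inner mitochondrial membrane, complex II (succinate dehydrogenase) oxidises succinate and passes its electrons to ubiquinone. Complex III hands electrons from ubiquinol to cytochrome c, complex IV (cytochrome c oxidase) gives them to oxygen, and complex V (ATP synthase) makes ATP from the proton gradient built up on the way. In macrophages LPS is known to shift ATP production towards glycolysis, and Metformin is known as a weak inhibitor of complex I. Catalytic subunits of complexes III and IV and the a subunit of complex V are encoded in mitochondrial DNA, whereas all members described here are encoded in the nucleus and imported. Many of their promoters are known targets of the factors NRF1 and GABPA, and ZEB1 binds E-boxes.

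RefSeq promoter windows of 300 bases (250 before and 50 after the start, GRCm38.p6) were matched for 36 of the 48 member symbols. Letters searched on both strands were GCGCANGCG for NRF1, CCGGAAG for the ETS family that includes GABPA, AAGATGGCG for YY1, TGACGTCA for CRE-binding factors and the E-boxes CAGGTA and CAGGTG. The NRF1 letters stood in 12 of the 36 (33.3%) against 7.03% of all 27025 genes with a window. The ETS letters stood in 13 (36.1% against 9.93%), and at least 1 of these 2 motifs in 19 (52.8% against 15.5%). The YY1 letters stood in 2 members (Atp5j and Atp5j2) and the CRE letters in 1 (Uqcrfs1). Either E-box stood in 10 members (27.8%) and in 32.5% of all genes. The 250 bases before the start are shown for a pair of complex IV genes whose level rose in Metformin + LPS and a pair of complex II genes not called there in either genotype with TMM scaling, with any of these motifs in capitals. All 4 lie on the minus strand and run 5′ to 3′ towards the start, from chr7:30626115-30626364 for Cox6b1, chr5:115348959-115349208 for Cox6a1, chr13:74350241-74350490 for Sdha and chr9:50603850-50604099 for Sdhd.
Cox6b1: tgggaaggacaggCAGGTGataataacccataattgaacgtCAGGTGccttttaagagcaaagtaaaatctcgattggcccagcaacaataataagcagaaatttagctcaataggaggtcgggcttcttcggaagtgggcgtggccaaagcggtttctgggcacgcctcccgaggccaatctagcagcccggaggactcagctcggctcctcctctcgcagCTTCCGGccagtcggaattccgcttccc
Cox6a1: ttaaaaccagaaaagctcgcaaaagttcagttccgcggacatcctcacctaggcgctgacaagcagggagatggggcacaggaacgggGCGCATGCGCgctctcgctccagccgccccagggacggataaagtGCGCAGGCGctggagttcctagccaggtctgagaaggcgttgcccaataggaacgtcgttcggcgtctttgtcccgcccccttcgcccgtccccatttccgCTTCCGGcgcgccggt
Sdha: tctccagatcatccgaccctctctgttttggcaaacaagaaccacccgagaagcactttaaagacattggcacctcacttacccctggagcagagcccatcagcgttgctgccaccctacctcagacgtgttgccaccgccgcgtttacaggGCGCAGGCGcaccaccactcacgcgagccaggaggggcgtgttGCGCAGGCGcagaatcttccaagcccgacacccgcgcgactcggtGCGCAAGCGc
Sdhd: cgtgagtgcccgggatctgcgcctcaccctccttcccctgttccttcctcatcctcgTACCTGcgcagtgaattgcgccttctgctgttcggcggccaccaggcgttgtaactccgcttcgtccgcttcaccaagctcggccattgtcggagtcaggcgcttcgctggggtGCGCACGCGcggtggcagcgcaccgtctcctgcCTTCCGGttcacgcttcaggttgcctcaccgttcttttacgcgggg
Cox6b1 holds 2 CAGGTG E-boxes and an ETS motif, Cox6a1 has NRF1 motifs and an ETS motif, Sdha has 3 NRF1 motifs close to the start, and Sdhd has a CAGGTA E-box on the other strand, an NRF1 motif and an ETS motif. Among the 23 members with a window that were called higher in Metformin + LPS in at least 1 genotype, 12 held an NRF1 or ETS motif and 15 held any of the motifs searched. Among the 10 tested and called in neither genotype, 7 held an NRF1 or ETS motif, and the same 7 are all that held any of the motifs. A match is a run of letters, not a bound site.

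Library totals ran from 14053706 to 30570439 counts. Zeb1, the deleted gene, stood at 6.41, 6.69 and 7.21 CPM (read counts scaled to a common library size with TMM factors) for Zeb1 WT and 2.30, 3.01 and 1.38 for Zeb1 ∆M after LPS. It was at 0.912, 2.52 and 1.07 against 0.738, 0.926 and 0.758 after LPS + LPS, and at 12.6, 12.9 and 12.3 against 4.21, 4.79 and 3.92 after Metformin + LPS. In LPS and in Metformin + LPS every Zeb1 ∆M library lay below every Zeb1 WT library and the difference was called (edgeR adjusted p = 0.03 and 0.012). In LPS + LPS the genotypes overlapped and the difference was not called (adjusted p = 0.35). All 6 macrophage markers, which include Lyz2, the gene that carries the Cre, were present in every group. Their summed level after Metformin + LPS was 43008 to 102720.0 CPM for Zeb1 WT but 17941 to 24952 for Zeb1 ∆M. It was 43719 to 56970.0 and 26580.0 to 41995 after LPS, and 15020.0 to 24220.0 and 12205 to 16024 after LPS + LPS. Lyz2 alone made up 56.5 to 92.6% of these sums. Between genotypes in Metformin + LPS it was the 1 macrophage marker of 6 called, with a log2 fold change of -2.33 (edgeR adjusted p = 0.0015), and the other 5 summed to 6527 to 10149 CPM for Zeb1 WT and 6302 to 7586 for Zeb1 ∆M. From LPS to Metformin + LPS, 5 of the 6 were called higher in Zeb1 WT, and in Zeb1 ∆M 4 higher and 1 (Lyz2) lower. The summed level of 7 markers of large peritoneal macrophages (Gata6, Timd4 and others) was 11389 to 14778 CPM after LPS and 12709 to 17770.0 after Metformin + LPS in Zeb1 WT. After LPS + LPS it was 769 to 895 in Zeb1 WT against 2112 to 3143 in Zeb1 ∆M. Markers of other cells were also present. The 8 neutrophil markers in Zeb1 WT summed to 691 to 884 CPM after LPS, 913 to 3791 after LPS + LPS and 505 to 590.3 after Metformin + LPS. B cell markers (6 genes) reached at most 183 CPM and dendritic cell markers (4 genes) at most 209, both in Zeb1 WT LPS. Markers of mast cells and basophils (6 genes) reached 16.6 CPM, of T cells (4 genes) 1.82 and of mesothelium (3 genes) 1.22. Monocyte markers (4 genes) after Metformin + LPS summed to 763 to 1485 CPM for Zeb1 WT against 219 to 314 for Zeb1 ∆M. Eosinophil markers (4 genes, Epx at 0 counts in every group) summed there to 38.1 to 56.2 CPM for Zeb1 WT against 2.50 to 3.11 for Zeb1 ∆M. In the same order of genotypes, neutrophil markers there summed to 505 to 590.3 and 423 to 501 CPM, B cell markers to 28.9 to 55.3 and 8.37 to 11.5, dendritic cell markers to 17.7 to 34.2 and 6.33 to 7.69, and markers of mast cells and basophils to 9.29 to 16.6 and 1.13 to 2.53. Against LPS, 3 of 4 monocyte and 1 of 7 large peritoneal macrophage markers were called higher in Zeb1 WT Metformin + LPS, and 0 lower. Called lower were 4 of 8 neutrophil, 5 of 6 B cell and 2 of 4 dendritic cell markers, and 0 higher (all genes 13.0% higher and 12.3% lower). Ly6c2 (log2 fold change 4.07 and 4.5) and Ccr2 (2.69 and 2.24) were called higher in both genotypes. In Zeb1 ∆M, Gata6 was called lower (-3.07) and Icam2 and Timd4 higher (1.285 and 0.743). The part of these markers in the results below was not tested. The 6 Metformin + LPS libraries carry codes of another series than the other 12, so Metformin and the library series cannot be told apart. In them, the ribosomal RNA-like rows Gm42418, AY036118 and CT010467.1 (chosen after their values were seen) took 6.73 to 12.4% and 4.24 to 14.003% of counts, against 0.287 to 2.29% in the others.

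The TMM factors, which align the bulk of genes between libraries, differed between groups. For Zeb1 WT they were 0.867 to 0.995 after LPS, 1.42 to 1.56 after LPS + LPS and 0.445 to 0.708 after Metformin + LPS. For Zeb1 ∆M they were 0.958 to 1.06, 1.504 to 1.51 and 0.843 to 0.879. As a plain share of all counts, members of Zeb1 WT libraries took 0.317 to 0.354% after LPS, 0.525 to 0.557% after LPS + LPS and 0.333 to 0.385% after Metformin + LPS. In Zeb1 ∆M the shares were 0.309 to 0.371%, 0.4996 to 0.515% and 0.394 to 0.410%. On this scale the LPS + LPS libraries were highest. After TMM scaling, the summed members stood at 3419 to 3663, 3564 to 3805 and 5448 to 7484 CPM in Zeb1 WT and 2901 to 3873, 3324 to 3418 and 4673 to 4729 CPM in Zeb1 ∆M, in the same order of treatments. On that scale the Metformin + LPS libraries were highest and did not overlap with the others. A fold change below is therefore a change relative to the bulk of genes tested, and in bulk samples fewer cells of a type cannot be told apart from less RNA per cell.

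**Figure D1:**
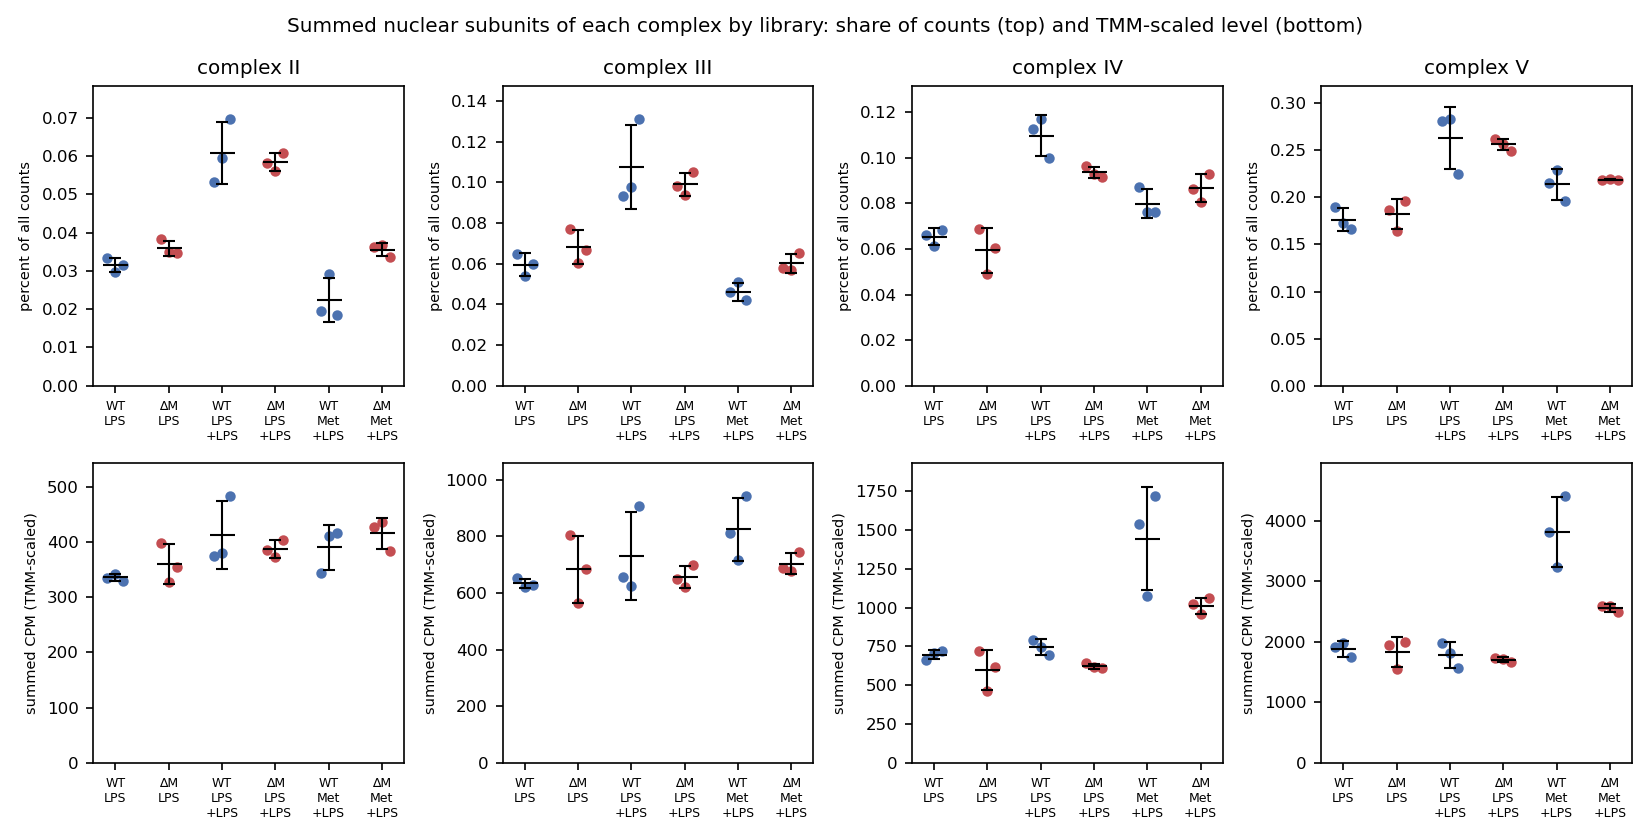
Summed nuclear subunits of each complex in every library (points, blue for Zeb1 WT and red for Zeb1 ∆M) with mean ± SD (n = 3), as percent of all counts in the upper row and as TMM-scaled CPM in the lower row. The LPS + LPS groups have the highest means in the upper row, and for complexes IV and V all Metformin + LPS libraries lie above all others in the lower row.

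Metformin + LPS against LPS gave the most calls among members. In Zeb1 WT, 26 of 42 members were called higher and 0 lower, beside 13.0% of all genes tested called higher and 12.3% lower. The median log2 fold change over the 42 was 0.73, beside -0.033 over all genes tested. In Zeb1 ∆M, 22 were called higher and 0 lower (all genes 12.6% and 13.6%), with a median of 0.60 beside -0.044. Split by complex, rises were called in Zeb1 WT in 0 of 4, 3 of 9, 10 of 12 and 13 of 17 members tested of complexes II to V, and in Zeb1 ∆M in 1, 2, 10 and 9. Called in both genotypes were 19, which is 73.1% of those called in Zeb1 WT and 86.4% of those called in Zeb1 ∆M, and 13 were called in neither. With library totals in place of TMM factors, 3 members were called higher and 5 lower in Zeb1 WT (all genes 3.47% and 38.2%) and 12 higher in Zeb1 ∆M (6.92%). That scaling moved the median of all genes to -0.74 and -0.27, and relative to it the member median was 0.74 in Zeb1 WT and 0.65 in Zeb1 ∆M, against 0.76 and 0.64 with TMM. Of the 42 log2 fold changes, 41 lay above 0 with TMM and 21 with library totals in Zeb1 WT, and 40 and 33 in Zeb1 ∆M. Without replicate 2 of Zeb1 ∆M LPS, 12 members were called in Zeb1 ∆M.

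A second LPS dose moved few members against the bulk of genes. In Zeb1 WT, 5 of 42 were called higher and 0 lower, beside 18.6% and 18% of all genes tested. The member median was 0.19 beside 0.078 over all genes. In Zeb1 ∆M, 1 was called higher and 0 lower (all genes 15.8% and 16.9%), with medians of 0.10 and 0.0069. The share of members called was thus below that of all genes in both genotypes. With library totals, 38 were called higher in Zeb1 WT and 29 in Zeb1 ∆M (all genes 39.7% and 32.4%). Under that scaling the all-gene medians were 0.73 and 0.59, and relative to them the member medians were 0.12 and 0.11, against 0.12 and 0.10 with TMM. Without replicate 3 of Zeb1 WT LPS + LPS, or without replicate 1 of Zeb1 WT LPS, 1 member was called in Zeb1 WT, and without replicate 2 of Zeb1 WT LPS 2 were.

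Between genotypes, edgeR called 0 of 42 members in LPS and 0 in LPS + LPS, beside 1.15% and 0.677% of all genes tested. At an unadjusted p under 0.05, 0 members differed in LPS and 2 were lower in Zeb1 ∆M in LPS + LPS (Cox7c and Atp5e), and the DESeq2 Wald test also called 0 in both (2 and 4 members at an unadjusted p under 0.05). In Metformin + LPS, 7 members were called lower in Zeb1 ∆M and 0 higher, beside 4.61% and 1.26% of all genes. The member median was -0.29 beside 0.026. Of these 7 calls, 0 were made with only the 2 groups in the fit and 0 without replicate 1 or without replicate 2 of Zeb1 ∆M Metformin + LPS, while 5 members were called without its replicate 3 (Sdhd higher and 4 lower). Without replicate 1 of Zeb1 WT Metformin + LPS 2 were called, without its replicate 3 1 was, and without its replicate 2 11 were. The DESeq2 Wald test called 10 members lower and Sdhd higher (all genes 7.53% and 2.57%), and edgeR with no count filter 3 lower and Sdhd higher (all genes 3.33% and 1.09%). With library totals, 0 members were called lower and 11 higher in Zeb1 ∆M (all genes 24.4% higher), where the all-gene median moved to 0.60 and the member median relative to it was -0.27, against -0.32 with TMM. The test of the difference itself (genotype by treatment interaction) called 0 members for LPS + LPS and 0 for Metformin + LPS, beside 0% and 0.156% of all genes. At an unadjusted p under 0.05 these were 0 and 5 members, and DESeq2 called 0 and 1 (Atp5f1), with 0 and 6 at an unadjusted p under 0.05. Without replicate 2 of Zeb1 WT Metformin + LPS, edgeR called 1 member for the Metformin + LPS interaction.

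**Figure D2:**
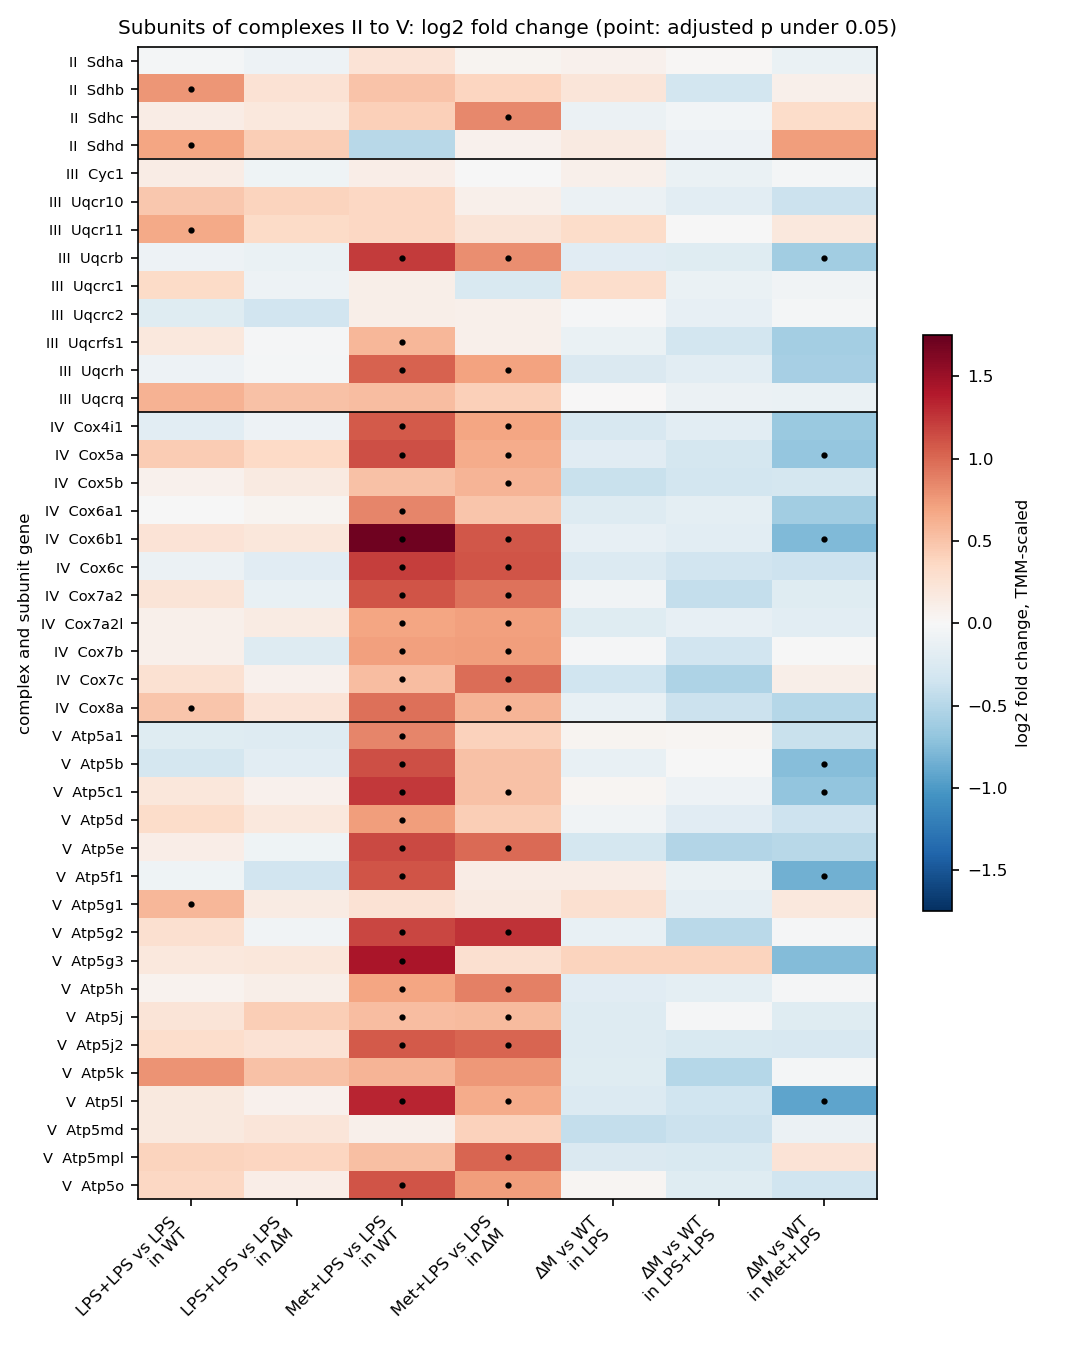
Log2 fold change (colour, TMM-scaled, first group minus second) of 41 of the members tested, by complex, in 7 comparisons, with a point where the edgeR adjusted p was under 0.05. Red fills most of the complex IV and V rows in both Metformin + LPS columns, the LPS and LPS + LPS genotype columns hold no point, and Cox7a1 is left out for its low counts.

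Complex II has 4 subunits, all encoded in the nucleus, and none of them was called in Zeb1 WT Metformin + LPS with TMM scaling. With length and GC trends removed, Sdha, Sdhb and Sdhc were called higher there. Sdha, the flavoprotein that holds the succinate site, stood at 190.3, 195 and 169 CPM for Zeb1 WT and 198, 192 and 194 for Zeb1 ∆M after LPS. Sdha was at 184, 167 and 190.3 (Zeb1 WT) and 187, 172 and 189.9 (Zeb1 ∆M) after LPS + LPS, and at 194, 241 and 222 and 193, 222 and 189 after Metformin + LPS. Its largest log2 fold change in the 7 comparisons came from Zeb1 WT in Metformin + LPS, at 0.24 (SE 0.14, edgeR adjusted p = 0.22). With TMM scaling it was called in none of them. Sdhb, the iron-sulfur subunit, stood at 53.3, 56.1 and 79.2 CPM for Zeb1 WT and 95.4, 54.0 and 69.1 for Zeb1 ∆M after LPS. Sdhb was at 85.4, 88.5 and 149 (Zeb1 WT) and 86.0, 82.7 and 91.1 (Zeb1 ∆M) after LPS + LPS, and at 84.4, 84.0 and 97.1 and 100.05, 89.7 and 93.5 after Metformin + LPS. In LPS + LPS it rose in Zeb1 WT, with a log2 fold change of 0.78 (SE 0.23, edgeR adjusted p = 0.012), and every LPS + LPS library was above every LPS library. Replicate 3 of Zeb1 WT LPS + LPS was the highest, and in Zeb1 ∆M the groups overlapped and the difference of 0.25 was not called. Sdhc, a membrane anchor that helps bind haem and ubiquinone, stood at 31.6, 35.8 and 31.03 CPM for Zeb1 WT and 34.1, 22.6 and 35.3 for Zeb1 ∆M after LPS. Sdhc was at 36.1, 41.7 and 29.5 (Zeb1 WT) and 37.0, 35.3 and 31.7 (Zeb1 ∆M) after LPS + LPS, and at 34.8, 43.2 and 53.5 and 53.6, 55.3 and 55.6 after Metformin + LPS. It was called higher in Metformin + LPS in Zeb1 ∆M, by 0.84 (SE 0.19, edgeR adjusted p = 0.0046), and in Zeb1 WT the difference was 0.42 (adjusted p = 0.12). Sdhd, the other anchor, stood at 59.5, 55.5 and 50.9 CPM for Zeb1 WT and 71.6, 58.4 and 55.6 for Zeb1 ∆M after LPS. Sdhd was at 70.2, 83.1 and 114 (Zeb1 WT) and 76.5, 83.0 and 91.4 (Zeb1 ∆M) after LPS + LPS, and at 30.7, 43.6 and 44.0 and 80.8, 69.9 and 45.5 after Metformin + LPS. Like Sdhb it rose with the second LPS dose in Zeb1 WT, by 0.69 (SE 0.22, edgeR adjusted p = 0.019). In Zeb1 ∆M too, Sdhd was higher in every LPS + LPS library than in every LPS library. It was not called there in the TMM fit of all 18 libraries, but was with library totals and with only the groups compared. In Metformin + LPS it was at a lower level: every Zeb1 WT library lay below every Zeb1 WT LPS library (-0.49, SE 0.22, edgeR adjusted p = 0.11). That difference was not called with TMM and was called with library totals. Every Zeb1 ∆M Metformin + LPS library lay above every Zeb1 WT one (0.73, adjusted p = 0.059), which was not called with TMM and was called with DESeq2, with no count filter, with length and GC trends removed and with library totals.

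Of 9 members of complex III, 3 rose in Metformin + LPS in Zeb1 WT (Uqcrb, Uqcrh and Uqcrfs1) and 2 in Zeb1 ∆M (Uqcrb and Uqcrh). Uqcrb, a small subunit of the matrix side, stood at 50.9, 51.1 and 46.5 CPM for Zeb1 WT and 49.6, 40.1 and 39.9 for Zeb1 ∆M after LPS. Uqcrb was at 48.1, 52.9 and 38.3 (Zeb1 WT) and 39.0, 42.01 and 38.7 (Zeb1 ∆M) after LPS + LPS, and at 135, 87.9 and 124 and 74.1, 69.0 and 84.7 after Metformin + LPS. It rose by 1.22 (SE 0.18, edgeR adjusted p = 1.2e-04) in Zeb1 WT and by 0.81 (SE 0.18, edgeR adjusted p = 0.0028) in Zeb1 ∆M, with no overlap with LPS in either genotype. Uqcrh, the hinge protein that holds cytochrome c1, rose by 1.03 and 0.70 in the 2 genotypes (edgeR adjusted p = 0.0044 and 0.038). Uqcrfs1, the Rieske iron-sulfur protein, stood at 92.1, 87.0 and 74.2 CPM for Zeb1 WT and 88.9, 66.1 and 79.6 for Zeb1 ∆M after LPS. Uqcrfs1 was at 102, 78.7 and 108 (Zeb1 WT) and 81.7, 77.9 and 71.1 (Zeb1 ∆M) after LPS + LPS, and at 112, 103 and 163 and 77.8, 82.9 and 89.7 after Metformin + LPS. It rose in Zeb1 WT by 0.58 (SE 0.19, edgeR adjusted p = 0.03) and was near its LPS level in Zeb1 ∆M (0.094, adjusted p = 0.75), and the interaction was not called (-0.48, adjusted p = 0.45). In the TMM fit of all 18 libraries, the core proteins and cytochrome c1 did not pass the test in any comparison. With library totals, Cyc1, Uqcrc1 and Uqcrc2 were called lower in Zeb1 WT Metformin + LPS. Under that scaling Cyc1 and Uqcrc1 were called higher in Zeb1 WT LPS + LPS, and Cyc1 in Zeb1 ∆M LPS + LPS. In Metformin + LPS it also called Cyc1 and Uqcrc2 higher in Zeb1 ∆M than in Zeb1 WT. With length and GC trends removed, Cyc1 was called lower in Zeb1 ∆M LPS + LPS. Uqcrc1, a core protein of the matrix side, stood at 259.8, 236 and 256 CPM for Zeb1 WT and 370.1, 258 and 303 for Zeb1 ∆M after LPS. Uqcrc1 was at 241, 234 and 475 (Zeb1 WT) and 279, 264 and 330.2 (Zeb1 ∆M) after LPS + LPS, and at 225, 245 and 335 and 252, 239.9 and 279 after Metformin + LPS. Its groups overlapped in all 7 comparisons, and replicate 3 of Zeb1 WT LPS + LPS was the highest of the 18 libraries. Cyc1, the cytochrome c1 haem protein, stood at 78.7, 79.4 and 72.4 CPM for Zeb1 WT and 91.3, 67.3 and 87.2 for Zeb1 ∆M after LPS. Cyc1 was at 83.4, 80.3 and 88.9 (Zeb1 WT) and 79.4, 76.6 and 76.5 (Zeb1 ∆M) after LPS + LPS, and at 73.2, 86.1 and 89.8 and 81.2, 87.4 and 75.7 after Metformin + LPS. Its log2 fold changes lay between -0.12 and 0.13 in the 7 comparisons. Uqcrc2, the other core protein, differed by 0.10 and 0.084 in Metformin + LPS and by -0.21 and -0.33 in LPS + LPS. None of these was called in the TMM fit of all 18 libraries. The fall in Zeb1 ∆M LPS + LPS was called with DESeq2, and with edgeR without replicate 2 of Zeb1 ∆M LPS. Uqcr11, a small subunit of the membrane part, stood at 17.0, 21.3 and 22.0 CPM for Zeb1 WT and 31.7, 19.4 and 24.0 for Zeb1 ∆M after LPS. Uqcr11 was at 28.0, 23.1 and 44.4 (Zeb1 WT) and 28.4, 30.2 and 36.1 (Zeb1 ∆M) after LPS + LPS, and at 27.0, 22.3 and 28.0 and 28.6, 25.8 and 33.6 after Metformin + LPS. In the TMM fit of all 18 libraries it was the single complex III member called in LPS + LPS. There it rose in Zeb1 WT by 0.66 (SE 0.23, edgeR adjusted p = 0.033). Uqcr10 and Uqcrq, small membrane subunits too, were called in no comparison in that fit, with values of 0.36 and 0.55 in Zeb1 WT Metformin + LPS. With library totals both were called higher in LPS + LPS in both genotypes. Without replicate 1 of Zeb1 ∆M LPS both were called higher in Zeb1 ∆M LPS + LPS. With no count filter, or without replicate 3 of Zeb1 WT LPS, Uqcrq was called higher in Zeb1 WT LPS + LPS. With length and GC trends removed, Uqcrq was called higher in Zeb1 WT Metformin + LPS.

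In complex IV, of 12 members tested, 10 rose in Metformin + LPS in Zeb1 WT and 10 in Zeb1 ∆M, with medians of 0.91 and 0.73. Cox6b1, a subunit facing the intermembrane space that helps join the complex into dimers, stood at 65.6, 71.8 and 78.5 CPM for Zeb1 WT and 81.9, 49.9 and 63.0 for Zeb1 ∆M after LPS. Cox6b1 was at 90.1, 85.2 and 80.0 (Zeb1 WT) and 75.1, 74.6 and 74.4 (Zeb1 ∆M) after LPS + LPS, and at 265, 148 and 293 and 146, 133 and 134 after Metformin + LPS. It rose by 1.71 (SE 0.22, edgeR adjusted p = 4.4e-05) in Zeb1 WT, the largest of the 26 rises called in that comparison, and by 1.09 (SE 0.22, edgeR adjusted p = 0.0016) in Zeb1 ∆M. All Metformin + LPS libraries lay above all LPS and LPS + LPS libraries. Cox4i1, the ubiquitous form of subunit 4 that binds ATP and sets the activity of the enzyme, stood at 187, 202 and 194 CPM for Zeb1 WT and 195, 115 and 170.3 for Zeb1 ∆M after LPS. Cox4i1 was at 192, 158 and 164 (Zeb1 WT) and 156, 148 and 147 (Zeb1 ∆M) after LPS + LPS, and at 449, 291 and 484 and 250.3, 255 and 272 after Metformin + LPS. It rose by 1.07 and 0.69 (edgeR adjusted p = 9.4e-04 and 0.017). Replicate 2 of Zeb1 WT Metformin + LPS, whose TMM factor was the highest of its group, had the lowest level of Cox4i1 and of Cox6b1 there. Cox5a, a matrix-side subunit, stood at 43.7, 48.3 and 52.5 CPM for Zeb1 WT and 52.7, 30.8 and 42.3 for Zeb1 ∆M after LPS. Cox5a was at 68.9, 61.7 and 66.6 (Zeb1 WT) and 52.8, 52.3 and 54.5 (Zeb1 ∆M) after LPS + LPS, and at 111, 78.3 and 126 and 63.7, 62.1 and 70.7 after Metformin + LPS. It rose by 1.13 and 0.65 (edgeR adjusted p = 4.7e-04 and 0.02). Cox5b, the zinc-binding subunit next to it, stood at 46.4, 48.4 and 52.2 CPM for Zeb1 WT and 46.1, 29.97 and 36.2 for Zeb1 ∆M after LPS. Cox5b was at 48.2, 50.8 and 56.2 (Zeb1 WT) and 39.2, 42.3 and 43.3 (Zeb1 ∆M) after LPS + LPS, and at 58.4, 61.1 and 90.7 and 58.3, 49.0 and 62.3 after Metformin + LPS. It rose in Zeb1 ∆M by 0.60 (SE 0.19, edgeR adjusted p = 0.026) and the difference missed the threshold in Zeb1 WT (0.52, adjusted p = 0.0502). Cox6c, a small membrane subunit, stood at 45.7, 43.2 and 46.1 CPM for Zeb1 WT and 47.6, 26.5 and 40.4 for Zeb1 ∆M after LPS. Cox6c was at 44.0, 48.4 and 33.6 (Zeb1 WT) and 34.0, 34.6 and 31.5 (Zeb1 ∆M) after LPS + LPS, and at 128, 81.7 and 104 and 86.6, 80.1 and 77.6 after Metformin + LPS. It rose by 1.21 and 1.09 (edgeR adjusted p = 4.3e-04 and 0.0011).

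The subunits of complex IV that exist as tissue forms were read by their paralogs. Cox6a1, the non-muscle form, stood at 84.4, 87.6 and 100.5 CPM for Zeb1 WT and 89.1, 62.5 and 81.9 for Zeb1 ∆M after LPS. Cox6a1 was at 93.2, 92.6 and 85.4 (Zeb1 WT) and 81.4, 81.7 and 78.4 (Zeb1 ∆M) after LPS + LPS, and at 153, 126 and 217 and 106, 96.9 and 123 after Metformin + LPS. It rose by 0.86 (SE 0.19, edgeR adjusted p = 0.0029) in Zeb1 WT, with 0.48 in Zeb1 ∆M (adjusted p = 0.067). Cox7a2, the non-muscle form of subunit 7a, stood at 30.3, 33.1 and 40.9 CPM for Zeb1 WT and 41.5, 25.0 and 33.7 for Zeb1 ∆M after LPS. Cox7a2 was at 42.05, 44.1 and 35.6 (Zeb1 WT) and 31.1, 28.5 and 31.6 (Zeb1 ∆M) after LPS + LPS, and at 89.8, 55.4 and 79.1 and 64.9, 63.3 and 66.1 after Metformin + LPS. Cox7a2l, its relative, stood at 59.2, 60.0 and 49.8 CPM for Zeb1 WT and 57.2, 36.2 and 53.0 for Zeb1 ∆M after LPS. Cox7a2l was at 67.4, 53.4 and 58.3 (Zeb1 WT) and 57.8, 53.5 and 50.9 (Zeb1 ∆M) after LPS + LPS, and at 96.7, 78.1 and 99.0 and 70.4, 63.1 and 108 after Metformin + LPS. Both rose in both genotypes, by 1.10 and 0.96 for Cox7a2 and 0.70 and 0.72 for Cox7a2l. Cox7b, a subunit needed for assembly, stood at 22.4, 23.9 and 23.8 CPM for Zeb1 WT and 26.9, 19.1 and 23.0 for Zeb1 ∆M after LPS. Cox7b was at 26.7, 26.0 and 21.7 (Zeb1 WT) and 19.3, 20.1 and 19.6 (Zeb1 ∆M) after LPS + LPS, and at 43.9, 33.6 and 38.1 and 42.6, 34.1 and 38.3 after Metformin + LPS. It rose by 0.72 and 0.74. Cox8a, the ubiquitous form of subunit 8, stood at 54.9, 64.7 and 55.5 CPM for Zeb1 WT and 54.8, 48.6 and 57.2 for Zeb1 ∆M after LPS. Cox8a was at 89.2, 94.1 and 62.9 (Zeb1 WT) and 71.0, 61.2 and 58.0 (Zeb1 ∆M) after LPS + LPS, and at 107, 93.7 and 142 and 90.2, 83.0 and 69.8 after Metformin + LPS. It rose by 0.97 and 0.60 in Metformin + LPS. In the TMM fit of all 18 libraries it was the single complex IV member called in Zeb1 WT LPS + LPS. There it rose by 0.49 (SE 0.19, edgeR adjusted p = 0.0466). Cox7c, a small membrane subunit, rose by 0.54 and 0.98. The adjusted p of these rises lay between 7.2e-04 and 0.038 (edgeR). The muscle, testis and lung forms were near absent. Cox7b2, Cox8b and Cox8c had 0 counts in all 18 libraries, Cox4i2 had 9 in all (7 of them in replicate 3 of Zeb1 WT LPS + LPS), Cox6a2 24 and Cox6b2 41. Cox7a1, the heart and muscle form of subunit 7a, had 121 counts in all and just passed the filter. Its raw counts were 5, 2 and 6 for Zeb1 WT and 2, 0 and 1 for Zeb1 ∆M after LPS, 11, 9 and 20 and 20, 10 and 6 after LPS + LPS, and 6, 4 and 6 and 2, 6 and 5 after Metformin + LPS. It was the 1 member called in Zeb1 ∆M LPS + LPS (edgeR adjusted p = 0.034), on 3 counts in LPS against 36. It was not called with no count filter, with length and GC trends removed or with only the groups compared. Nor was it called without replicate 2 or 3 of Zeb1 ∆M LPS or replicate 1 or 2 of Zeb1 ∆M LPS + LPS.

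**Figure D3:**
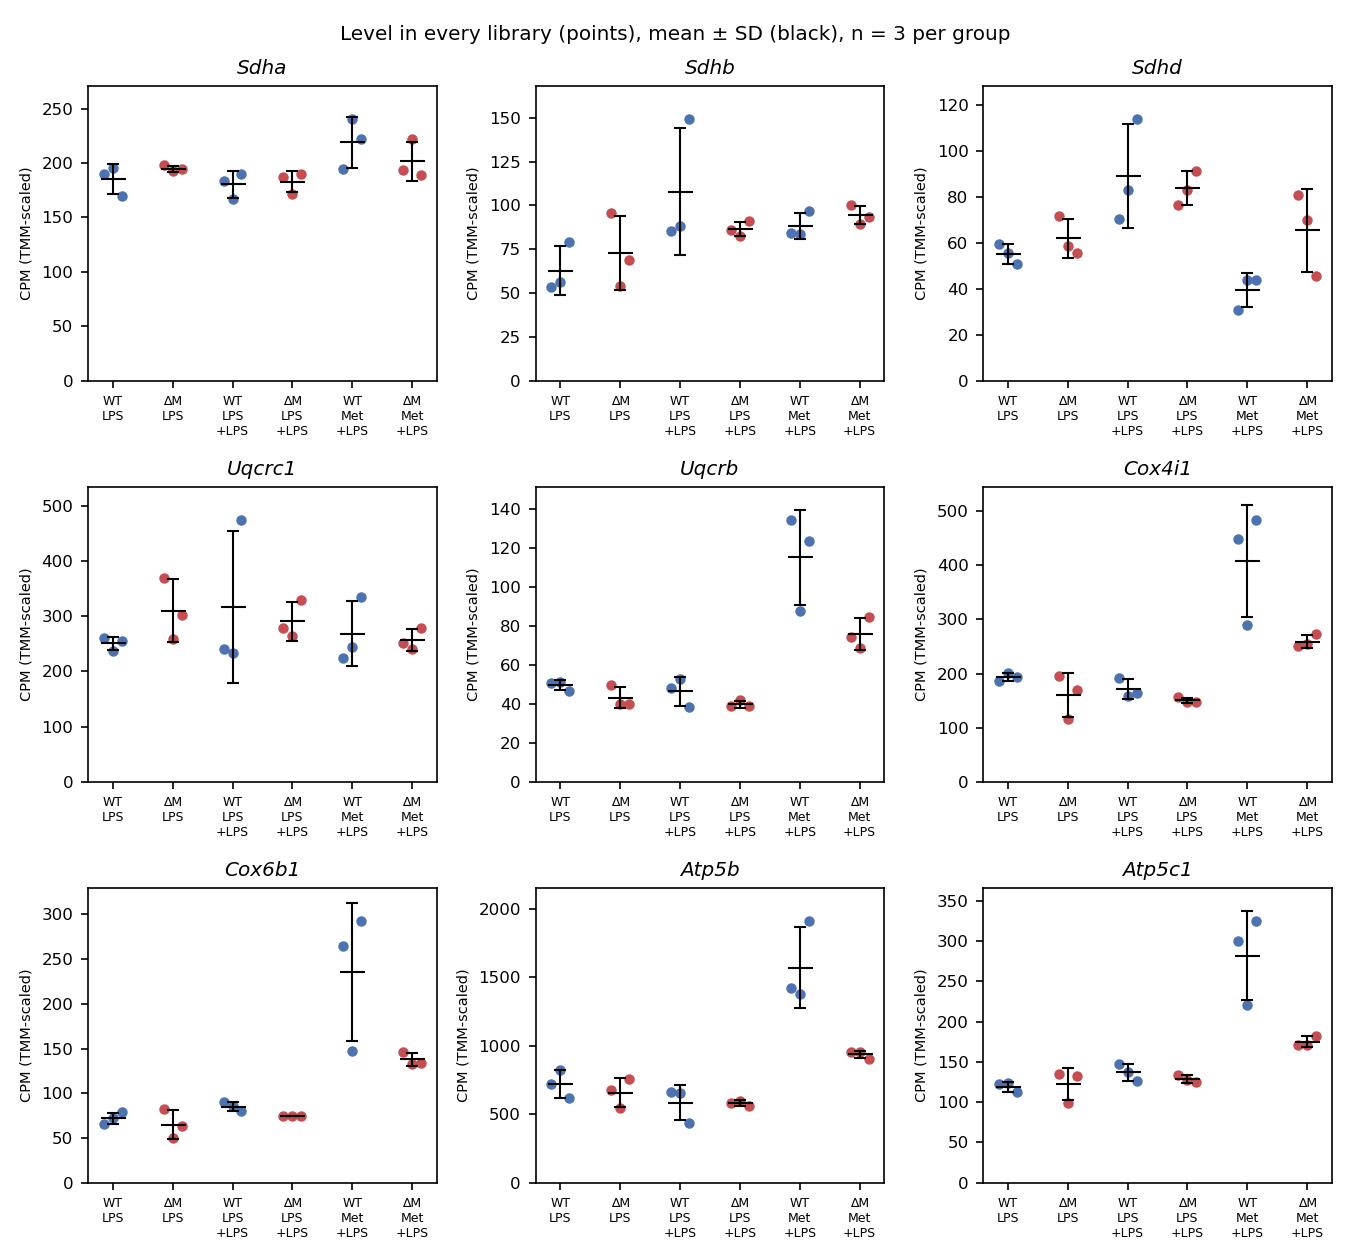
TMM-scaled CPM (vertical axes from 0) of 9 members in every library (points, blue for Zeb1 WT and red for Zeb1 ∆M) with the mean ± SD of each group (black, n = 3). Uqcrb, Cox4i1, Cox6b1, Atp5b and Atp5c1 are highest in the Metformin + LPS groups, the groups of Uqcrc1 overlap, with replicate 3 of Zeb1 WT LPS + LPS the highest, and Sdhd is lowest in Zeb1 WT Metformin + LPS.

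In complex V, 13 of 17 members tested rose in Zeb1 WT Metformin + LPS and 9 in Zeb1 ∆M, with medians of 1.07 and 0.56. The F1 head carries the catalysis. Atp5a1, its alpha subunit, stood at 489, 441 and 417 CPM for Zeb1 WT and 463, 406 and 526 for Zeb1 ∆M after LPS. Atp5a1 was at 466, 355 and 348 (Zeb1 WT) and 418, 395 and 380.1 (Zeb1 ∆M) after LPS + LPS, and at 819, 756 and 858 and 617, 684 and 548 after Metformin + LPS. Atp5b, the catalytic beta subunit, stood at 721, 819 and 618 CPM for Zeb1 WT and 677, 544 and 754 for Zeb1 ∆M after LPS. Atp5b was at 665, 652 and 436 (Zeb1 WT) and 584, 599 and 561 (Zeb1 ∆M) after LPS + LPS, and at 1423, 1375 and 1912 and 956, 951 and 905 after Metformin + LPS. Atp5c1, the gamma subunit that turns inside the head, stood at 122, 123 and 112 CPM for Zeb1 WT and 135, 99.3 and 133 for Zeb1 ∆M after LPS. Atp5c1 was at 147, 138 and 126 (Zeb1 WT) and 134, 128 and 124 (Zeb1 ∆M) after LPS + LPS, and at 301, 220.4 and 325 and 171, 171 and 183 after Metformin + LPS. All 3 rose in Zeb1 WT without overlap, by 0.85 (SE 0.17, edgeR adjusted p = 0.0013), 1.13 (SE 0.20, edgeR adjusted p = 6.4e-04) and 1.24 (SE 0.17, edgeR adjusted p = 6.5e-05). In Zeb1 ∆M the differences were 0.41, 0.51 and 0.52, of which that of Atp5c1 was called (adjusted p = 0.081, 0.067 and 0.028). Atp5d, the delta subunit, rose by 0.73 in Zeb1 WT (edgeR adjusted p = 0.0032) and Atp5e, the epsilon subunit, by 1.16 and 0.99 in the 2 genotypes (adjusted p = 5.5e-04 and 0.002). The stalk holds the head to the membrane. Atp5f1, here the peripheral stalk subunit b, stood at 183, 183 and 176 CPM for Zeb1 WT and 227, 171 and 194 for Zeb1 ∆M after LPS. Atp5f1 was at 167, 164 and 181 (Zeb1 WT) and 167, 144 and 161 (Zeb1 ∆M) after LPS + LPS, and at 389.6, 286 and 484 and 197, 189 and 264 after Metformin + LPS. It rose by 1.10 (SE 0.19, edgeR adjusted p = 5.1e-04) in Zeb1 WT, and in Zeb1 ∆M the difference was 0.13 (adjusted p = 0.64). Atp5o, Atp5h and Atp5j of the same stalk rose in both genotypes, by 1.10 and 0.73, 0.69 and 0.88, and 0.54 and 0.56.

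Subunit c, the ring that rotates in the membrane, is made from 3 genes that encode the same mature protein. Atp5g1 stood at 38.0, 35.2 and 41.2 CPM for Zeb1 WT and 60.9, 32.1 and 45.6 for Zeb1 ∆M after LPS. Atp5g1 was at 52.5, 47.9 and 70.0 (Zeb1 WT) and 52.6, 49.3 and 51.0 (Zeb1 ∆M) after LPS + LPS, and at 44.3, 42.7 and 49.4 and 51.8, 51.8 and 51.5 after Metformin + LPS. Atp5g2 stood at 27.0, 24.0 and 24.6 CPM for Zeb1 WT and 21.7, 22.1 and 25.5 for Zeb1 ∆M after LPS. Atp5g2 was at 41.6, 33.8 and 16.5 (Zeb1 WT) and 21.7, 25.8 and 18.6 (Zeb1 ∆M) after LPS + LPS, and at 70.8, 48.9 and 50.5 and 62.5, 65.4 and 39.0 after Metformin + LPS. Atp5g3 stood at 19.2, 17.3 and 18.5 CPM for Zeb1 WT and 19.0, 32.6 and 20.2 for Zeb1 ∆M after LPS. Atp5g3 was at 30.1, 21.6 and 11.1 (Zeb1 WT) and 18.1, 34.6 and 29.4 (Zeb1 ∆M) after LPS + LPS, and at 63.6, 33.3 and 50.9 and 31.8, 32.6 and 22.5 after Metformin + LPS. The 3 genes were called in different comparisons. Atp5g1 rose in Zeb1 WT LPS + LPS by 0.57 (SE 0.19, edgeR adjusted p = 0.027) and not in Metformin + LPS (0.25 and 0.16). Atp5g2 rose in Metformin + LPS in both genotypes, by 1.17 (SE 0.27, edgeR adjusted p = 0.0045) and 1.27 (SE 0.27, edgeR adjusted p = 0.0029), and Atp5g3 in Zeb1 WT, by 1.42 (SE 0.33, edgeR adjusted p = 0.0046), with 0.28 in Zeb1 ∆M (adjusted p = 0.57). Zeb1 ∆M replicate 2 was the highest Atp5g3 library in both LPS and LPS + LPS of that genotype. Whether the 3 genes differ in their response was not tested. Of the small membrane subunits, Atp5l (subunit g, which helps join the enzyme into dimers) stood at 48.7, 56.6 and 48.9 CPM for Zeb1 WT and 50.7, 36.2 and 43.2 for Zeb1 ∆M after LPS. Atp5l was at 55.6, 65.6 and 52.9 (Zeb1 WT) and 44.4, 44.9 and 47.9 (Zeb1 ∆M) after LPS + LPS, and at 178, 81.0 and 128 and 68.3, 63.1 and 71.9 after Metformin + LPS. It rose by 1.33 (SE 0.22, edgeR adjusted p = 3.1e-04) and 0.64 (SE 0.21, edgeR adjusted p = 0.034). Atp5j2 (subunit f) stood at 15.2, 16.3 and 17.2 CPM for Zeb1 WT and 18.8, 10.96 and 11.9 for Zeb1 ∆M after LPS. Atp5j2 was at 19.9, 22.6 and 17.5 (Zeb1 WT) and 15.8, 18.3 and 15.7 (Zeb1 ∆M) after LPS + LPS, and at 42.8, 25.1 and 34.3 and 28.3, 26.1 and 29.7 after Metformin + LPS. It rose by 1.07 and 1.02 (edgeR adjusted p = 0.0018 and 0.0029). Atp5mpl stood at 10.4, 10.8 and 13.6 CPM for Zeb1 WT and 9.74, 9.53 and 9.99 for Zeb1 ∆M after LPS. Atp5mpl was at 16.0, 17.0 and 12.7 (Zeb1 WT) and 11.7, 12.2 and 14.2 (Zeb1 ∆M) after LPS + LPS, and at 17.2, 15.9 and 17.2 and 24.2, 18.4 and 16.6 after Metformin + LPS. It rose in Zeb1 ∆M by 1.02 (SE 0.20, edgeR adjusted p = 0.0013) and was at 0.53 in Zeb1 WT (adjusted p = 0.056). Atp5k (subunit e) and Atp5md, also of the membrane part, were called in no comparison in the TMM fit of all 18 libraries. They were at 0.59 and 0.091 in Zeb1 WT Metformin + LPS. With library totals both were called higher in LPS + LPS in both genotypes, and Atp5md lower in Zeb1 WT Metformin + LPS. With length and GC trends removed, Atp5k was called higher in Metformin + LPS in both genotypes. Atpif1, the inhibitor that stops the enzyme from running backwards and no member by the rule, stood at 17.97, 22.7 and 16.0 CPM for Zeb1 WT and 31.1, 10.5 and 14.98 for Zeb1 ∆M after LPS. Atpif1 was at 29.8, 23.5 and 29.2 (Zeb1 WT) and 23.4, 21.1 and 22.5 (Zeb1 ∆M) after LPS + LPS, and at 45.3, 32.1 and 39.5 and 44.9, 38.6 and 38.7 after Metformin + LPS. It rose in Metformin + LPS by 1.04 (SE 0.28, edgeR adjusted p = 0.011) in Zeb1 WT and 1.12 (SE 0.28, edgeR adjusted p = 0.0078) in Zeb1 ∆M. With library totals it stood at 0.32 in Zeb1 WT (adjusted p = 0.36), no longer called, and was still called in Zeb1 ∆M, at 0.91.

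The 7 members called lower in Zeb1 ∆M than in Zeb1 WT in Metformin + LPS were Atp5f1, Atp5l, Atp5c1, Atp5b, Cox6b1, Cox5a and Uqcrb. In each of them every Zeb1 ∆M library lay below every Zeb1 WT library, and the log2 fold changes were -0.84, -0.93, -0.69, -0.74, -0.77, -0.68 and -0.60. The 7 were picked by their p in this same comparison, so the lack of overlap is no separate support. The smallest edgeR adjusted p was 0.014 (Atp5f1, SE 0.19) and the largest 0.0491 (Uqcrb, SE 0.17). All 7 also rose from LPS to Metformin + LPS in Zeb1 WT, and 5 of them in Zeb1 ∆M, beside 26 and 22 of all 42 members tested. The interaction values of the 7 lay between -0.97 and -0.41, with a smallest edgeR adjusted p of 0.14. These rises and interaction values use the same Metformin + LPS libraries as the pick, so they are no separate support either. The groups also differ in their TMM factors and in markers of other cells. Called lower in Zeb1 ∆M in the same comparison were 4 of 4 monocyte, 5 of 8 neutrophil, 4 of 6 B cell, 2 of 3 eosinophil, 1 of 3 mast cell and basophil, 1 of 4 dendritic cell and 1 of 6 macrophage markers tested, and 0 were called higher. The part of these values in the 7 differences was not tested. With library totals, none of the 7 was called, and Uqcrb stood at 0.012.

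**Figure D4:**
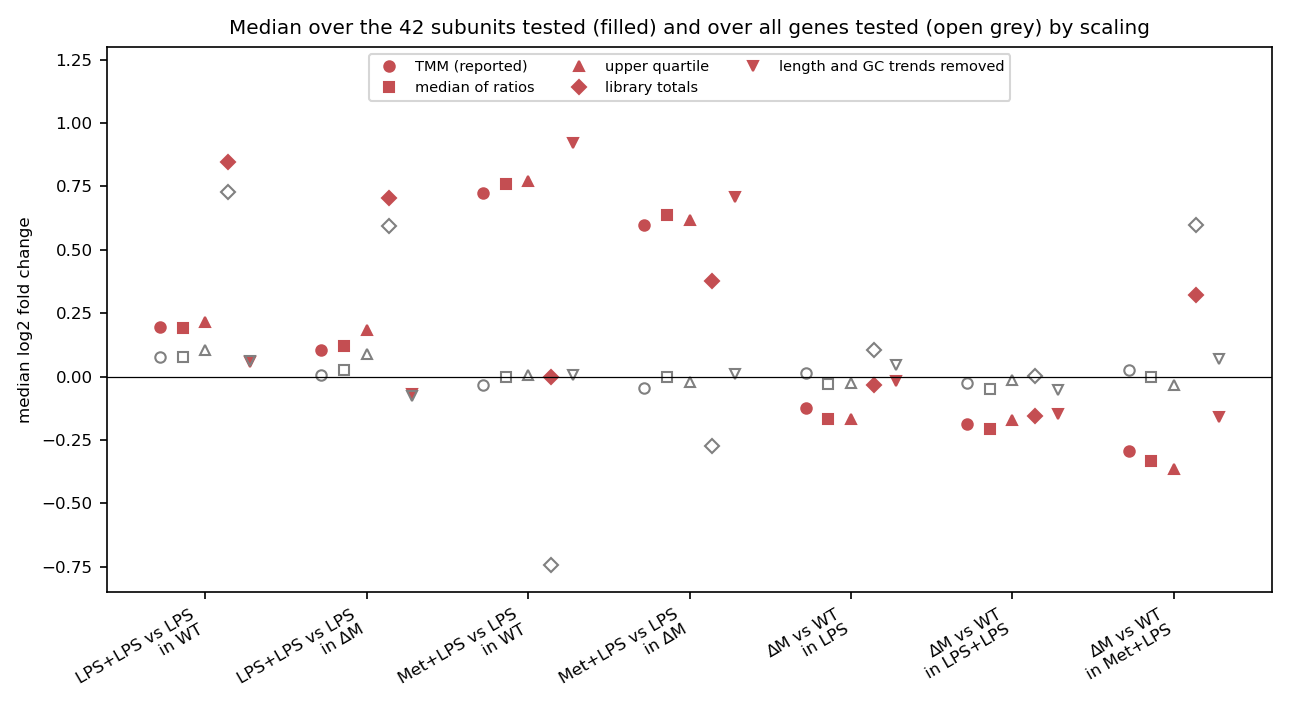
Median log2 fold change over the 42 members tested (filled red) and over all genes tested (open grey) in 7 comparisons, under 5 ways of scaling (marker shape). With library totals the member and all-gene medians shift together in the treatment comparisons, and the member median stays above the all-gene median in both Metformin + LPS comparisons and below it in the genotype comparison within Metformin + LPS.

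Complex I, which is not among the members, also had called rises in Metformin + LPS. Ndufa4, whose symbol has the form of a complex I subunit, is described with complex IV below and was left out here. Of the 35 other nuclear subunits tested, Metformin + LPS called 16 higher and 0 lower in Zeb1 WT and 16 higher and 0 lower in Zeb1 ∆M, with medians of 0.65 and 0.52. Over all genes tested, 13.0% and 12.6% were called higher there. LPS + LPS called 13 higher and 0 lower in Zeb1 WT and 3 higher and 0 lower in Zeb1 ∆M, with medians of 0.44 and 0.18. Over all genes tested, 18.6% and 15.8% were called higher there. With library totals the Metformin + LPS counts of complex I were 0 higher and 5 lower in Zeb1 WT (all genes 3.47% and 38.2%). In Zeb1 ∆M they were 5 higher and 0 lower (all genes 6.92% higher). The Zeb1 WT median was -0.054 and the Zeb1 ∆M median 0.31. The LPS + LPS counts were 32 higher and 0 lower and 27 higher and 0 lower (all genes 39.7% and 32.4% higher). Ndufv3, an accessory subunit of the NADH-oxidising arm, rose by 1.66 and 1.05 in LPS + LPS (edgeR adjusted p = 2.0e-05 and 0.0016), and Ndufs7, a core subunit, by 1.07 and 0.79 in Metformin + LPS (0.35, not called, and 0.57 with library totals). Between genotypes 0 of the 35 were called in any treatment with TMM. Of all genes 1.15% were called in LPS, 0.677% in LPS + LPS, and 1.26% higher and 4.61% lower in Metformin + LPS. With library totals 16 higher and 0 lower were called in Zeb1 ∆M in Metformin + LPS (all genes 24.4% higher). The median there was 0.64 against 0.069 with TMM, and 0 were called in the other treatments. Of 38 assembly factors of complexes II to V, the second LPS dose called 13 higher and 3 lower in Zeb1 WT (all genes 18.6% and 18%). In Zeb1 ∆M it called 6 higher and 4 lower of 38 (all genes 15.8% and 16.9%). With library totals these counts were 25 higher and 2 lower and 16 higher and 1 lower (all genes 39.7% and 32.4% higher). Surf1, an early complex IV assembly factor, rose by 1.17 and 1.12, Sdhaf1, which helps load iron-sulfur clusters into complex II, by 1.42 and 1.16, and the hypoxia-responsive Higd1a by 1.21 and 1.33. Sco1, a copper carrier for complex IV, fell by 1.42 and 1.10 on the log2 scale, as did Cox18, an insertase for complex IV, by 1.41 and 1.51. Of these 5 genes, Sco1 in Zeb1 ∆M was no longer called with library totals. In Metformin + LPS, 4 higher and 3 lower of 38 were called in Zeb1 WT (all genes 13.0% and 12.3%). In Zeb1 ∆M 4 higher and 2 lower of 38 were called (all genes 12.6% and 13.6%). With library totals these counts were 1 higher and 11 lower (all genes 3.47% and 38.2%) and 0 higher and 3 lower (all genes 6.92% higher). Sdhaf1 fell there by 1.21 and 1.40, and Fmc1, an assembly factor of complex V at 1.40 ± 0.204 CPM (SD, n = 3) in Zeb1 WT LPS, rose by 1.91 and 1.20, the latter not called with library totals.

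Of the 7 electron carriers and partners of complex IV, 6 were tested. Ndufa4, a subunit of complex IV that a paralog can replace during inflammation, stood at 31.1, 35.8 and 34.9 CPM for Zeb1 WT and 40.9, 25.6 and 28.2 for Zeb1 ∆M after LPS. Ndufa4 was at 16.0, 22.5 and 17.8 (Zeb1 WT) and 14.4, 15.4 and 19.4 (Zeb1 ∆M) after LPS + LPS, and at 64.6, 46.1 and 51.5 and 60.7, 47.8 and 57.1 after Metformin + LPS. AA467197, the mouse gene of that paralog (NMES1), stood at 78.3, 38.3 and 55.2 CPM for Zeb1 WT and 26.4, 21.9 and 32.7 for Zeb1 ∆M after LPS. AA467197 was at 474, 182 and 134 (Zeb1 WT) and 172, 139.8 and 116 (Zeb1 ∆M) after LPS + LPS, and at 180.2, 122 and 193 and 36.7, 51.0 and 29.5 after Metformin + LPS. In LPS + LPS the pair moved in opposite directions: Ndufa4 fell by 0.85 and 0.95 on the log2 scale in the 2 genotypes (edgeR adjusted p = 0.003 and 0.0016), and AA467197 rose by 2.20 and 2.40 (adjusted p = 2.1e-04 and 1.2e-04). With library totals Ndufa4 was at -0.19 and -0.35 and no longer called, while AA467197 was still called. No library of LPS + LPS overlapped with LPS for either gene. In Metformin + LPS both rose in Zeb1 WT, Ndufa4 by 0.67 and AA467197 by 1.53 (adjusted p = 0.021 and 0.0067), while in Zeb1 ∆M Ndufa4 rose by 0.81 (adjusted p = 0.0077) and AA467197 stood at 0.53 (adjusted p = 0.31). With library totals Ndufa4 changed sign in Zeb1 WT, to -0.049, and neither gene was called there. AA467197 was lower in Zeb1 ∆M than in Zeb1 WT in Metformin + LPS by 2.08 on the log2 scale (edgeR adjusted p = 0.0041). Cycs, cytochrome c, stood at 178, 183 and 197 CPM for Zeb1 WT and 227, 156 and 163 for Zeb1 ∆M after LPS. Cycs was at 113, 113 and 163 (Zeb1 WT) and 107, 99.2 and 119 (Zeb1 ∆M) after LPS + LPS, and at 409.7, 332 and 598 and 219.7, 238 and 358 after Metformin + LPS. It rose by 1.26 (SE 0.24, edgeR adjusted p = 9.8e-04) in Zeb1 WT Metformin + LPS and fell by 0.74 in Zeb1 ∆M LPS + LPS (adjusted p = 0.022), and neither was called with library totals.

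Of 6 subunits of complexes III to V encoded in mitochondrial DNA and tested, 3 rose in Metformin + LPS in Zeb1 WT and 2 in Zeb1 ∆M. Of all genes 13.0% and 12.6% were called higher there. With library totals the counts were 3 higher and 1 lower in Zeb1 WT (all genes 3.47% and 38.2%). In Zeb1 ∆M they were 2 higher and 0 lower (all genes 6.92% higher). mt-Co1, the catalytic subunit of complex IV, stood at 3479, 3009.7 and 1963 CPM for Zeb1 WT and 1697, 1739 and 1618 for Zeb1 ∆M after LPS. mt-Co1 was at 1615, 1414 and 1566 (Zeb1 WT) and 1486, 1439.8 and 1217 (Zeb1 ∆M) after LPS + LPS, and at 13649, 9468 and 14239 and 3437, 3507 and 5587 after Metformin + LPS. It rose by 2.14 (SE 0.26, edgeR adjusted p = 2.6e-05) in Zeb1 WT and 1.31 (SE 0.25, edgeR adjusted p = 0.0012) in Zeb1 ∆M, and it was lower in Zeb1 ∆M than in Zeb1 WT in Metformin + LPS, with a log2 fold change of -1.58 (SE 0.25, edgeR adjusted p = 0.0017). mt-Co2, which receives electrons from cytochrome c, rose by 1.90 and 2.19 (edgeR adjusted p = 0.0022 and 9.3e-04), and mt-Atp6, the a subunit of complex V, by 1.74 in Zeb1 WT (adjusted p = 0.0051). mt-Cytb of complex III was at 0.69 and 0.33, not called. mt-Co3 was listed at 0 in 2 of the 18 libraries, both of LPS + LPS, and no value is read from it. Mitochondrially encoded transcripts and the ribosomal RNA-like rows were both high in the Metformin + LPS libraries, and whether library preparation plays a part was not tested. Of 10 regulators of nuclear respiratory genes tested, Metformin + LPS called 1 higher and 2 lower in Zeb1 WT and 0 higher and 1 lower in Zeb1 ∆M (0 higher and 4 lower and 0 higher and 1 lower with library totals). Over all genes tested, 13.0% higher and 12.3% lower were called there in Zeb1 WT, and 12.6% and 13.6% in Zeb1 ∆M. With library totals these shares were 3.47% higher and 38.2% lower in Zeb1 WT, and 6.92% higher in Zeb1 ∆M. Nrf1, the factor of the NRF1 motif above, fell there by 0.50 and 0.58 on the log2 scale (edgeR adjusted p = 0.026 and 0.012). In Zeb1 WT Yy1, the factor of the YY1 motif, rose by 1.02 (SE 0.35, edgeR adjusted p = 0.041), which was not called with library totals (0.34), and Myc fell by 1.97 on the log2 scale (adjusted p = 6.0e-05). In LPS + LPS, 1 higher and 4 lower of 10 were called in Zeb1 WT and 1 higher and 4 lower of 10 in Zeb1 ∆M, with medians of -0.40 and -0.44. Over all genes tested, 18.6% higher and 18% lower were called there in Zeb1 WT, and 15.8% and 16.9% in Zeb1 ∆M. With library totals the counts were 4 higher and 1 lower in Zeb1 WT and 1 higher and 1 lower in Zeb1 ∆M. The medians were 0.25 and 0.15. With that scaling 39.7% and 32.4% of all genes tested were called higher, so the Zeb1 WT count was near the all-gene share. Gabpb1, a subunit of the GABP factor, fell with TMM scaling by 1.17 and 1.21, Hif1a by 0.71 and 0.90, and Myc by 1.55 and 0.71. With library totals Hif1a was called in neither genotype, Gabpb1 in Zeb1 ∆M alone and Myc in Zeb1 WT alone.

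**Figure D5:**
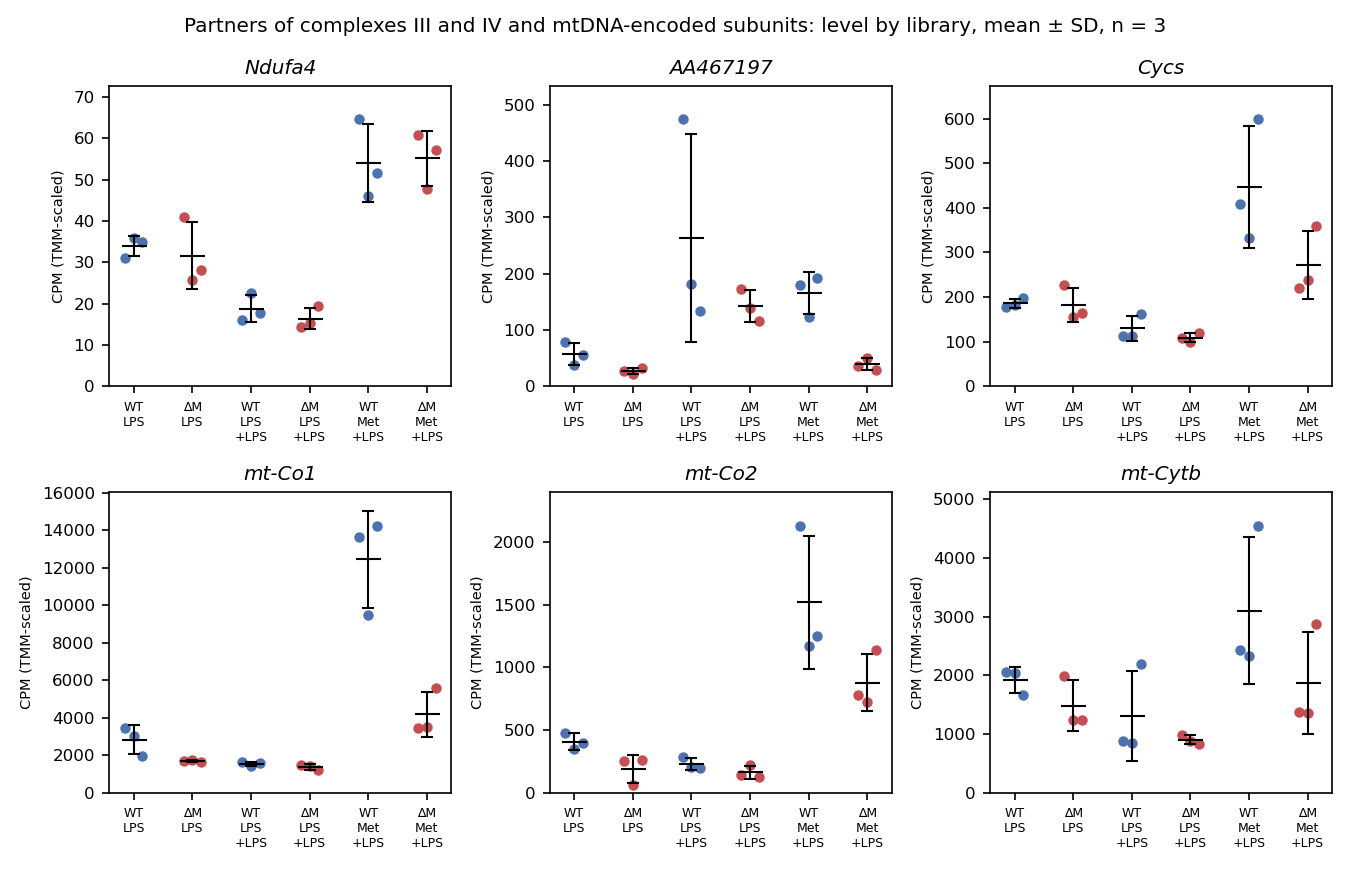
TMM-scaled CPM (vertical axes from 0) of 3 partners of complexes III and IV and 3 subunits encoded in mitochondrial DNA in every library (points, blue for Zeb1 WT and red for Zeb1 ∆M) with mean ± SD (black, n = 3). Ndufa4 is lowest and AA467197 high in both LPS + LPS groups, and mt-Co1 is highest in Zeb1 WT Metformin + LPS.

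Members share features that their choice did not use. Their transcripts are short, with a median length of 652 bases (GENCODE M21) against 2037 over all genes tested, and their GC content is similar, at 51.8% and 50.2%. Members called in Zeb1 WT Metformin + LPS had a median length of 671 bases and those not called 579. In Zeb1 ∆M the order was the other way, at 625 and 825. With length and GC trends removed, 33 members were called higher in Zeb1 WT Metformin + LPS and 27 in Zeb1 ∆M, beside 14% and 14.1% of all genes. In Zeb1 WT LPS + LPS 2 were called higher and 1 lower (all genes 17.9% and 18.6%). Between genotypes in Metformin + LPS, Sdhd was called higher in Zeb1 ∆M and 4 members lower (all genes 1.71% and 4.2%). Of 8 pseudogene rows with matching symbols, 7 were at 0 and the other held 5 counts over all libraries.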

How the data were processed

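RNA was sequenced from 18 libraries of sorted peritoneal macrophages. Per the labels, the authors made stranded mRNA libraries and their processing notes name STAR, RSEM, GRCm38 and DESeq2, with versions not given in the sources used here. The deposited values are whole-number counts per gene. The members and gene lists were chosen with earlier results of these data known. Genes were filtered by edgeR's filterByExpr, scaled by TMM and tested with the edgeR (4.0.16) quasi-likelihood test on all 18 libraries, with Benjamini-Hochberg adjustment over 13443 genes and a threshold of 0.05, in 9 comparisons. Alternatives were median-of-ratios and upper-quartile factors, library totals, DESeq2 (1.42.0), no filter, the replicate block, only the groups compared, length and GC trends removed, and each library left out. For genes outside the members, library totals were added after seeing the data, and Ndufa4 was then also left out of the complex I list. Named in full are fixed core subunits and paralog sets, up to 6 members called per genotype comparison and up to 5 rises and 5 falls per treatment comparison, and of each other list up to 4 called genes by adjusted p. Cell type marker lists are described by their sums. On simulated data for the LPS genotype comparison, 93 of 100 genes changed by log2 2 and 34 of 100 changed by log2 1 were recovered among 13443, with 8 false calls. Library totals of 14053706 to 30570439 counts set the counting precision. Nothing in the labels says that replicates were prepared on separate days, so p-values measure the spread between these samples.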

Additional observations from a re-analysis of the deposited data

How the results depend on the processing

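Within Metformin + LPS, 7 members were called lower in Zeb1 ∆M. With library totals none of these was called, and 11 other members were called higher (median log2 fold change 0.323). DESeq2 called 11 (10 lower and Sdhd higher), edgeR with no count filter 4 (3 lower and Sdhd higher) and with only the groups compared 0. Leaving out 1 library gave 0 to 11. For LPS + LPS in Zeb1 WT, the 5 members called became 38 with library totals (median 0.846), 3 with length and GC trends removed (median 0.057) and 1 with only the groups compared, and leaving out 1 library gave 1 to 4. For LPS + LPS in Zeb1 ∆M, the 1 member called became 29 with library totals (median 0.706), 2 with upper-quartile factors, 2 with DESeq2 and 0 with no count filter. With length and GC trends removed the 1 call was Cyc1 lower, and without replicate 2 of Zeb1 ∆M LPS it was Uqcrc2 lower. With only the groups compared the 1 call was Sdhd higher, and leaving out 1 library gave 0 to 4. For Metformin + LPS in Zeb1 WT, library totals gave 8 (3 higher and 5 lower) with a median of -0.0008 and turned the sign of 20 of the 42 members. Of the 26 called, 6 turned: Uqcrfs1 (-0.19), Cox7a2l (-0.040), Cox7b (-0.0024), Atp5h (-0.051), Atp5j (-0.21) and Cox7c (-0.21), and leaving out 1 library gave 21 to 27. For Metformin + LPS in Zeb1 ∆M, library totals gave 12, and leaving out 1 library gave 12 to 22. For the interaction with Metformin + LPS, library totals moved the median to 0.38, DESeq2 called 1 member, and leaving out 1 library gave 0 to 1. For LPS and LPS + LPS between genotypes and the interaction with LPS + LPS, 0 members were called under every alternative. Which property of the libraries sets their scaling factors was not tested.

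The same replicate number did not pair samples: same-numbered libraries of different groups correlated between -0.089 and 0.152 (median 0.011, 45 pairs), and 3 of 45 pairs lay above 0.1. With the replicate block, 27 members were called in Zeb1 WT Metformin + LPS, 22 in Zeb1 ∆M Metformin + LPS and 6 between genotypes in Metformin + LPS. For LPS + LPS it called 4 (Zeb1 WT) and 1 (Zeb1 ∆M). Over 42 member results given in full by the naming rule and 587 alternative values, 466 kept their direction and side of the threshold, 118 lost their call and 3 reversed (the first 3 named above). With 3 libraries a group, changes of log2 1 were often missed on simulated data. The changed genes there were drawn from all genes above 1 CPM, for the LPS genotype comparison alone. That recovery is therefore not the recovery of these members or of the other comparisons. A member that was not called is not shown to be equal.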
